A study of Mus musculus with 6 samples.

Results

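The matrix metalloproteinases (MMPs), the ADAMTS proteases and their inhibitors were compared between Tlx1 homozygous and Tlx1 heterozygous embryonic mouse spleens at E13.5, in 3 arrays each. The members were 43 genes named by symbol, namely 20 MMP genes, 18 ADAMTS genes, the 4 TIMP genes and Reck. Of these, 41 were measured by a probe set that carries their symbol alone, and all 41 passed the filter on low values, among 18710 genes tested in all. Mmp15 and Adamts2 were not analysed here. Tlx1 is a homeobox gene needed for spleen development. The labels state the zygosity but neither the allele nor the strain, and homozygous is taken to mean 2 altered copies of Tlx1, which leaves 1 in the heterozygous embryos. Both groups thus carry an altered copy, and no wild-type spleen was compared. The labels do not say whether a replicate was a single embryo or a pool, so all p-values rest on a spread between arrays that may be technical. Total RNA of the whole spleen was hybridised, and in such bulk samples fewer cells of a type and less RNA per cell cannot be told apart.

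Both protease families are zinc enzymes that cut proteins of the extracellular matrix and of the cell surface. MMPs are either secreted or held at the membrane and together cut collagens, fibronectin and many other proteins, while the ADAMTS enzymes are secreted and have narrower targets, such as the large aggregating proteoglycans or the propeptides of fibrillar collagens. Most are made as inactive precursors, and the TIMP proteins and the membrane-anchored RECK hold the active enzymes in check. At this stage the spleen is a condensing mesenchyme that is being vascularised, a setting in which matrix is both laid down and remodelled.

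Tlx1 itself had intensities of 171, 209 and 200 on homozygous arrays 1 to 3, against 825, 706 and 719 on heterozygous arrays 1 to 3, a log2 fold change of -1.95 ± 0.09 (SE; adjusted p = 1.3e-05 in limma). Its 1 probe set may or may not lie in the altered stretch, so it checks the labels only in part. Of the 9 measured spleen mesenchyme markers 6 were lower in homozygous spleens, Tlx1 among them. Col1a1 was the 1 called higher (log2 fold change 0.24 ± 0.06 SE, adjusted p = 0.0278). Barx1 and Pdgfra did not pass, with estimates above 0 (0.27 and 0.12, adjusted p = 0.0517 and 0.269). Among the lower ones, Nkx2-5 had 268, 182 and 278 on the homozygous arrays, against 679, 596 and 569 on the heterozygous arrays (log2 fold change -1.36 ± 0.15 SE, adjusted p = 0.00133). Wt1 averaged 1758 in homozygous and 2208 in heterozygous spleens (-0.33 ± 0.06 SE, adjusted p = 0.0133). This call was lost when homozygous array 1 was left out (-0.29) and with Y-linked genes as a covariate (-0.34). Tcf21 averaged 2863 in homozygous and 3424 in heterozygous spleens (-0.26 ± 0.07 SE, adjusted p = 0.0359). This call was kept in 1 of the 6 refits without 1 array, that without homozygous array 3, and lost at -0.28 to -0.21 in the others. The call was also lost after cyclic loess (-0.24) and with that covariate (-0.29). Nkx2-5, Wt1 and Tcf21 were not listed at 0 on any array, and their signal over background was not examined. Array medians lay between 106 and 110 intensity units. The correlation of log2 values over genes was 0.995 to 0.997 for arrays of one genotype and 0.989 to 0.993 for arrays of different genotypes. The Y-linked gene Eif2s3y was brighter on heterozygous arrays 1 and 3 (600 and 735) than on the homozygous arrays (391 to 417) and heterozygous array 2 (398), and Xist, a transcript of female cells, was dimmer on the same 2 arrays (901 and 812, against 1478 to 1856 on the other 4). The part of this difference in the results below was examined only through a fit that held the mean level of 3 Y-linked genes as a covariate, called the Y-linked covariate here. On every array both Eif2s3y (391 to 735) and Xist (812 to 1856) lay above the array median. Whether an array held RNA of embryos of both sexes was not tested.

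Of the 41 measured members, 7 were higher and 1 was lower in homozygous spleens at an adjusted p below 0.05. The higher ones were Mmp16, Adamts1, Adamts5, Adamts8, Adamts18, Mmp24 and Adamts14, and the lower one was Mmp17. Among all genes tested 10.4% were called higher and 6.56% lower, together 17.0%, against 17.1% and 2.44% of the members, together 19.5%. The total share of members called was thus near that of all genes. The members were chosen with earlier results of these data known. Their shares, and those of their role groups below, are therefore not independent evidence. The median log2 fold change was 0.12 over the members and 0.02 over all genes tested, and 33 of the 41 estimates lay above 0, or 80.5%, against 53.6% of all genes. The 8 changes had folds between 1.21 and 1.75. Groups did not overlap for 19 members (14 higher, 5 lower), or 46.3%, against 38.3% of all genes. Cyclic loess scaling moved the split to 6 higher and 3 lower members. It also lowered the median of the members to 0.07, with 31 estimates above 0, while that of all genes was 0.01. The dim Mmp20 and Mmp21 went from 0.12 and 0.13 to 0.02 each. The bright Mmp16 and Timp2 went up, from 0.81 and 0.17 to 0.86 and 0.22. The members were not compared with genes of like intensity.

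**Figure D1:**
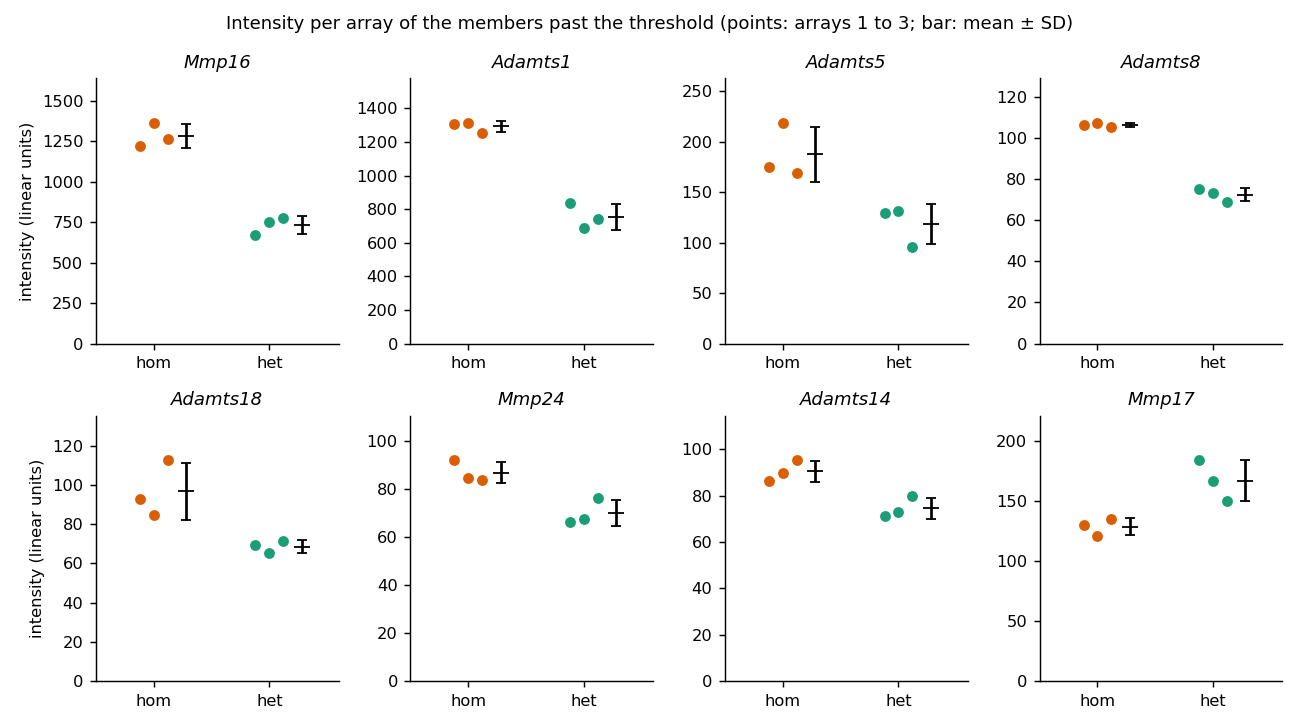
Intensity (linear units, y axis from 0) of the 8 members past the threshold on each array. Points are arrays 1 to 3 of the homozygous (hom, left) and heterozygous (het, right) group, and the bar beside them is the mean ± SD (n = 3); the groups do not overlap in any of the 8 panels, and Mmp17 is the one gene that is lower in hom.

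Of the 7 measured proteoglycanase genes of the ADAMTS family 3 rose in homozygous spleens, Adamts1 by 1.72-fold, Adamts5 by 1.58-fold and Adamts8 by 1.46-fold. The other 4 did not pass, and none was called lower. These 3 are 42.9% of the group, against 10.4% of all genes called higher, and the estimates of all 7 lay above 0. Adamts1 encodes a secreted protease that cuts the proteoglycans versican and aggrecan and has angiogenesis-inhibiting activity. It had intensities of 1309, 1315 and 1251 on homozygous arrays 1 to 3, against 834, 685 and 741 on heterozygous arrays 1 to 3. The homozygous arrays lay close together and well above all heterozygous ones. The log2 fold change was 0.78 ± 0.08 (SE; adjusted p = 0.000831).

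Adamts5, whose product is a major aggrecan- and versican-cutting enzyme, had intensities of 175, 219 and 169 on the homozygous arrays, against 130, 131 and 95.7 on the heterozygous arrays. The spread was wider than for Adamts1, with homozygous array 2 the highest and heterozygous array 3 the lowest, and its log2 fold change was 0.66 ± 0.14 (SE; adjusted p = 0.0168). Its call was lost with the Y-linked covariate (0.48, adjusted p = 0.108). Adamts8 encodes another member of this group with angiogenesis-inhibiting activity. It had intensities of 106.4, 107.4 and 105.2 on the homozygous arrays, against 74.9, 73.4 and 68.8 on the heterozygous arrays, a log2 fold change of 0.55 ± 0.06 (SE; adjusted p = 0.00125). Both groups were tight and far apart relative to their spread, but on each array Adamts8 lay below the array median (106 to 110).

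The other 4 proteoglycanase genes did not pass. Adamts9, a versican-cutting protease, was at a log2 fold change of 0.12 ± 0.08 (SE; adjusted p = 0.349), and its 6 probe sets gave estimates between 0.06 and 0.15, none called. Adamts20, its close relative, was at 0.08 ± 0.07, Adamts15 at 0.05 ± 0.06 and Adamts4, an aggrecan-cutting enzyme, at 0.03 ± 0.06 (SE; adjusted p between 0.468 and 0.734). The estimate for Adamts4 was -0.02 after cyclic loess. In the gene order of the RefSeq table Adamts1 and Adamts5 are direct neighbours, and so are Adamts8 and Adamts15. Both genes of the first pair were called higher, while of the second pair Adamts8 was called and Adamts15 was not. Whether Adamts8 and Adamts15 differed in their change was not tested.

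Among the less well characterised ADAMTS genes, Adamts18 was higher in homozygous spleens, by 1.40-fold. Its intensities were 93.0, 84.7 and 113 on the homozygous arrays, against 69.5, 65.1 and 71.3 on the heterozygous arrays. Homozygous array 3 stood above the other arrays, and the groups did not overlap. The log2 fold change was 0.48 ± 0.10 (SE; adjusted p = 0.0173). The adjusted p was 0.0546 without homozygous replicate 1 (0.51) and 0.0586 when heterozygous array 2 was left out (0.44). It was 0.0544 in the fit with the Y-linked covariate (0.53 ± 0.14 SE). Adamts16 was at 0.24 ± 0.10, Adamts19 at 0.20 ± 0.07 and Adamts17 at -0.15 ± 0.07 (SE; adjusted p between 0.099 and 0.165). Adamts17 has 5 probe sets, of which 4 gave estimates below 0 and none was called. Adamts19 passed after quantile normalization (0.26, adjusted p = 0.0417).

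Of the procollagen N-proteinases, which remove the amino-terminal propeptides of fibrillar procollagens, Adamts14 was higher by 1.21-fold and Adamts3 did not pass. Adamts14 had intensities of 86.4, 89.8 and 95.4 on the homozygous arrays, against 71.3, 72.7 and 79.8 on the heterozygous arrays. The lowest homozygous value lay only a little above the highest heterozygous one. Its log2 fold change was 0.28 ± 0.07 (SE; adjusted p = 0.0318). This call was lost without homozygous replicate 1 (0.31), 2 (0.28) or 3 (0.24) and without heterozygous replicate 1 (0.24) or 2 (0.26). It was also lost after quantile normalization (adjusted p = 0.0526) and after cyclic loess (adjusted p = 0.107). With the Y-linked covariate it was lost at 0.31 ± 0.10 (SE, adjusted p = 0.0902). Adamts3 was at 0.08 ± 0.07 (SE; adjusted p = 0.471). Its 16 probe sets gave estimates from -0.22 to 0.17 with none called, and 9 of them lay below 0.

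The remaining ADAMTS genes fell into pairs without a call. Adamts12, which like Adamts7 cuts cartilage oligomeric matrix protein, had intensities of 310, 331 and 299 on the homozygous arrays, against 278, 273 and 282 on the heterozygous arrays. Its groups did not overlap, yet its log2 fold change of 0.17 ± 0.06 (SE) had an adjusted p = 0.0941. It passed after quantile normalization (0.25, adjusted p = 0.0316). Adamts7 was at -0.09 ± 0.06 (SE; adjusted p = 0.374). Adamts6, a relative of the fibrillin-binding Adamts10, had intensities of 150, 163 and 123 on the homozygous arrays, against 101, 111 and 126 on the heterozygous arrays. Homozygous array 3 fell among the heterozygous values, so the groups overlapped, and the log2 fold change of 0.36 ± 0.12 (SE) had an adjusted p = 0.0659. It passed without homozygous replicate 3 (0.48, adjusted p = 0.0361) and without heterozygous replicate 3 (0.45, adjusted p = 0.0478), as well as with a pseudocount of 16, with a variance trend and robust fit together and with array weights (adjusted p between 0.0233 and 0.044). Adamts10 was at 0.0043 ± 0.06 (SE; adjusted p = 0.97).

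The promoters of the called members are shown because these genes moved in the same samples. RefSeq promoter windows of the assembly GRCm38.p6 were found for 27 of the 41 measured members and for 4 of the 8 called ones. The 250 bases before each of these 4 gene starts follow, 5′ to 3′ on the gene's strand, with matches to the searched motifs in capitals. All capitals mark GC boxes (GGGCGG on either strand, neighbouring matches overlapping or adjoining), except the TATAAA of Adamts1.
Adamts1, chr16:85803114-85803363, minus strand: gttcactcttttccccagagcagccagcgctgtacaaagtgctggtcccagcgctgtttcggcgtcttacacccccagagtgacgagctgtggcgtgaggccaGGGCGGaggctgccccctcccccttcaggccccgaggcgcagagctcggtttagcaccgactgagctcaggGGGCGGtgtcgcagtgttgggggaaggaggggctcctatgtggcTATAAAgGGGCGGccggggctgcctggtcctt
Adamts14, chr10:61273420-61273669, minus strand: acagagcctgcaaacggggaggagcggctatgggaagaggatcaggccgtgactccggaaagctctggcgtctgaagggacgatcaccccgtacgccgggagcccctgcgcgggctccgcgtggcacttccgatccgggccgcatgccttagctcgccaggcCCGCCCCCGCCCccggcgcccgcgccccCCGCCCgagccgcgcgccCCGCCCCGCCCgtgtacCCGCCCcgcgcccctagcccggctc
Adamts18, chr8:113848840-113849089, minus strand: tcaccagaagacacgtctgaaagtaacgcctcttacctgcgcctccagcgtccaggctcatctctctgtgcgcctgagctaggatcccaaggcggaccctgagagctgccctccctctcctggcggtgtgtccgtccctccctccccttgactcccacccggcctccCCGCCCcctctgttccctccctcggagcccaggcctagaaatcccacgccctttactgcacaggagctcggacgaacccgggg
Mmp24, chr2:155775092-155775341, plus strand: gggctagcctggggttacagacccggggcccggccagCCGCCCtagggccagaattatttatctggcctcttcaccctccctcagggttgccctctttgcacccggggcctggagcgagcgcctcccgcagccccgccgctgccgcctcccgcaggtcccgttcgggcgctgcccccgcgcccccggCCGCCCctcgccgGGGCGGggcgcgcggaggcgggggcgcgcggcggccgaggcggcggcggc

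All 4 windows held a GC box. So did 15 of the 30 windows of members (50%) and 32.7% of all 32851 promoter windows of the same length. Adamts14 had 6 matches, Adamts1 and Mmp24 3 each and Adamts18 1, and the windows had G+C contents of 76.4%, 65.6%, 79.2% and 65.2%, against a median of 52.4% over all windows. The TATA box letters TATAAA stood 32 to 27 bases before the start of Adamts1 and in 12.4% of all windows on either strand. None of the 4 windows held the AP-1 letters TGANTCA (6.75% of all windows), the core letters of a retinoic acid receptor site AGGTCA (14.0%) or the DR5 element, a direct repeat of AGGTCA with a spacer of 5 bases (0.0091%). A match is a run of letters, not a measured binding site, and its absence says only that these letters are not in this window.

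**Figure D2:**
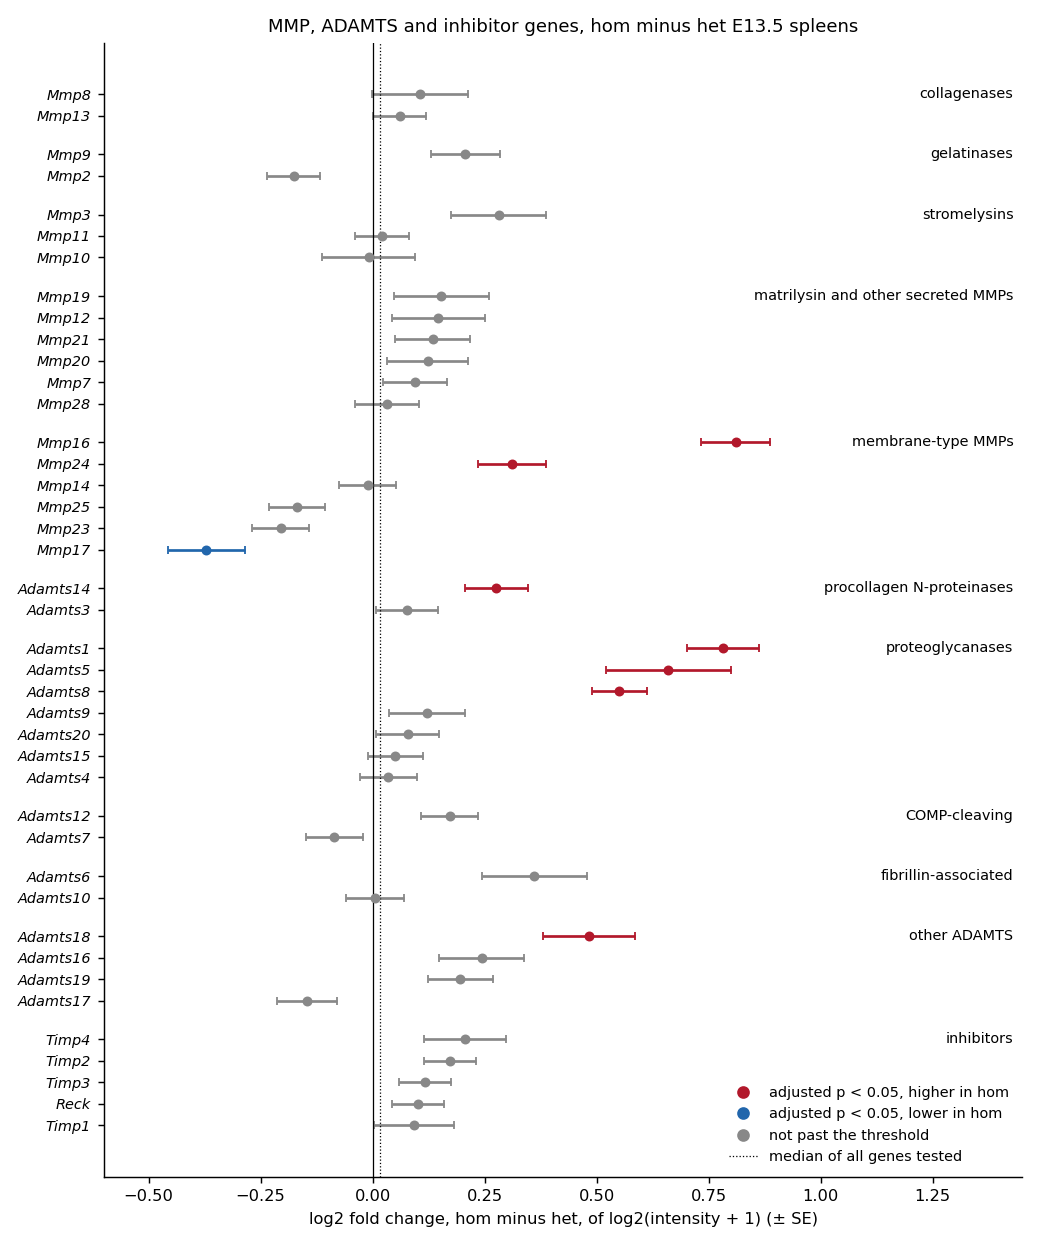
Log2 fold change (homozygous minus heterozygous, ± SE, n = 3 each) of the 41 measured members, grouped by role. Red points are the 7 members called higher, the blue point is Mmp17, called lower, grey points did not pass, and the dotted line is the median of all genes tested (0.02).

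Among the membrane-type MMPs, which sit on the cell surface and cut matrix next to the cell, Mmp16 and Mmp24 were higher and Mmp17 was lower. These were 2 and 1 of 6 measured members, or 33.3% and 16.7%, against 10.4% higher and 6.56% lower of all genes, and the other 3 did not pass. Mmp16, a membrane-spanning MMP that can activate the precursor of MMP2, had intensities of 1221, 1364 and 1262 on homozygous arrays 1 to 3, against 669, 749 and 778 on heterozygous arrays 1 to 3. No heterozygous array came near the homozygous values. This was a 1.75-fold rise, with a log2 fold change of 0.81 ± 0.08 (SE; adjusted p = 0.000632).

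Mmp24, a membrane-spanning MMP best known from the nervous system, had intensities of 92.2, 84.8 and 83.8 on the homozygous arrays, against 66.3, 67.4 and 76.1 on the heterozygous arrays. The log2 fold change was 0.31 ± 0.08 (SE; adjusted p = 0.027). Its call was lost when homozygous array 1 (0.27) or 3 (0.34) or heterozygous array 1 (0.27) or 2 (0.29) was left out. It was also lost after cyclic loess (0.21, adjusted p = 0.0708) and with the Y-linked covariate (0.39 ± 0.10 SE, adjusted p = 0.0508). Mmp17, which is held at the membrane by a lipid anchor, had intensities of 130, 121 and 135 on the homozygous arrays, against 184, 167 and 150 on the heterozygous arrays. The heterozygous values were spread widely, yet none reached down to the homozygous ones. Mmp17 was 1.29-fold lower, with a log2 fold change of -0.37 ± 0.09 (SE; adjusted p = 0.0229). That call was lost with the Y-linked covariate (-0.41 ± 0.12 SE, adjusted p = 0.0711) and without homozygous replicate 1 (-0.38). It was also lost without heterozygous replicate 1 (-0.30) or 2 (-0.37).

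The other 3 membrane-bound MMPs did not pass. Mmp14, a collagenase and the main activator of the MMP2 precursor, had intensities of 2425, 2677 and 2469 on the homozygous arrays, against 2577, 2513 and 2532 on the heterozygous arrays. Its groups overlapped fully, and its log2 fold change was -0.01 ± 0.06 (SE; adjusted p = 0.922). Mmp25, also lipid-anchored, was at -0.17 ± 0.06 and Mmp23, a type II membrane protein, at -0.21 ± 0.06 (SE; adjusted p = 0.094 and 0.059), both with groups that did not overlap. After cyclic loess both passed, at -0.22 (adjusted p = 0.0417) and -0.23 (adjusted p = 0.049), and Mmp23 also passed with the stricter filter (adjusted p = 0.0496) and with array weights (adjusted p = 0.0394).

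None of the 13 secreted MMPs passed in limma. Of these 13, 3 had an unadjusted p below 0.05, against 6382 of all 18710 genes. The gelatinase gene Mmp2, whose product cuts denatured collagen and collagen IV, had intensities of 1690, 1739 and 1699 on the homozygous arrays, against 1996, 1927 and 1873 on the heterozygous arrays. All homozygous arrays were below all heterozygous ones, but the difference was small, with a log2 fold change of -0.18 ± 0.06 (SE; adjusted p = 0.0729). It passed with a variance trend and robust fit together (adjusted p = 0.0238) and with array weights (-0.19, adjusted p = 0.0413). Mmp9, the other gelatinase and a product of myeloid and bone-resorbing cells, was at 0.21 ± 0.08 (SE; adjusted p = 0.0946), with 152, 133 and 141 on the homozygous arrays, against 128, 114 and 126 on the heterozygous arrays. Mmp9 passed with array weights (0.25, adjusted p = 0.0425).

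Among the stromelysins Mmp3 had intensities of 23.7, 31.2 and 31.3 on the homozygous arrays, against 22.5, 23.9 and 23.4 on the heterozygous arrays. Homozygous array 1 lay among the heterozygous values, and the log2 fold change of 0.28 ± 0.11 (SE) had an adjusted p = 0.1. Without that array it was 0.41 (adjusted p = 0.0202). These values are little above the filter floor of 15 and are no proof of expression. Mmp11, a stromelysin typical of stromal cells, was at 0.02 ± 0.06 with intensities of 669 to 724, and Mmp10 at -0.01 ± 0.10 (SE; adjusted p = 0.836 and 0.961).

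Both collagenases, Mmp8 and Mmp13, were dim, between 20.7 and 36.0 on all arrays. Mmp13, the main collagenase of rodents, had 34.7, 34.3 and 36.0 on the homozygous arrays, against 33.6, 34.4 and 32.6 on the heterozygous arrays, and a log2 fold change of 0.06 ± 0.06 (SE; adjusted p = 0.507), with groups that overlapped. Mmp8, the collagenase of neutrophils, was at 0.11 ± 0.11 (SE; adjusted p = 0.525). The 6 other secreted genes, Mmp7, Mmp12, Mmp19, Mmp20, Mmp21 and Mmp28, had estimates between 0.03 and 0.15 with adjusted p between 0.297 and 0.788. The smallest p of these was that of Mmp21, with 50.4, 41.1 and 45.2 on the homozygous arrays, against 43.3, 39.3 and 41.4 on the heterozygous arrays. Its groups overlapped. Mmp19 passed without homozygous replicate 3 (0.28, adjusted p = 0.0380), the array on which it was lowest. In the RefSeq gene order 7 of the secreted genes, Mmp3, Mmp7, Mmp8, Mmp10, Mmp12, Mmp13 and Mmp20, lie together on chromosome 9 with at most 1 other protein-coding gene between neighbours. All 7 were dim on every array, between 20.7 and 47.3, and none was called. Of these 7, 1 had an unadjusted p below 0.05, against 6382 of all 18710 genes.

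None of the 5 inhibitors passed in limma, and 1 had an unadjusted p below 0.05, against 6382 of all 18710 genes. All 5 estimates were above 0, between 0.09 and 0.21. Timp2, which inhibits MMPs and also takes part in the activation of MMP2 by MMP14, had intensities of 1134, 1158 and 1108 on the homozygous arrays, against 1024, 1010 and 983 on the heterozygous arrays. The groups did not overlap, and the log2 fold change was 0.17 ± 0.06 (SE; adjusted p = 0.0749). It passed after cyclic loess (0.22, adjusted p = 0.0398), with a variance trend and robust fit together (adjusted p = 0.0322) and with array weights (adjusted p = 0.0495).

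Timp3, the TIMP that binds to the matrix and also inhibits ADAMTS enzymes, had 1162, 1118 and 1134 on the homozygous arrays, against 1050, 1071 and 1028 on the heterozygous arrays. These groups did not overlap either, with a log2 fold change of 0.12 ± 0.06 (SE; adjusted p = 0.191). Reck, a membrane-anchored MMP inhibitor, was at 0.10 ± 0.06 (adjusted p = 0.249) and the dim Timp4 at 0.21 ± 0.09 (adjusted p = 0.152), both with groups that did not overlap. Timp1, an inducible inhibitor, was at 0.09 ± 0.09 (SE; adjusted p = 0.504) and its groups overlapped. The median log2 fold change was 0.12 over the 5 inhibitors, as it was over all 41 measured members.

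Across the 17 alternative settings, Mmp16, Adamts1 and Adamts8 kept their calls in all, and no called member turned sign. Over the refits without 1 array Mmp16 ranged from 0.75 to 0.86, Adamts1 from 0.72 to 0.86 and Adamts8 from 0.51 to 0.58. The number of members called higher ranged from 3 with the Y-linked covariate to 10 with array weights, and it was 9 with a variance trend and robust fit together. In either direction 7.32%, 31.7% and 26.8% of the members were called in these settings, against 8.80%, 24.4% and 19.5% of all genes. Over the refits without 1 array it ranged from 4 without heterozygous replicate 2 to 8 without heterozygous replicate 3. Mmp17 was the 1 member called lower in the reported fit, and the count of lower members was 0 in the refits that lost it.

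**Figure D3:**
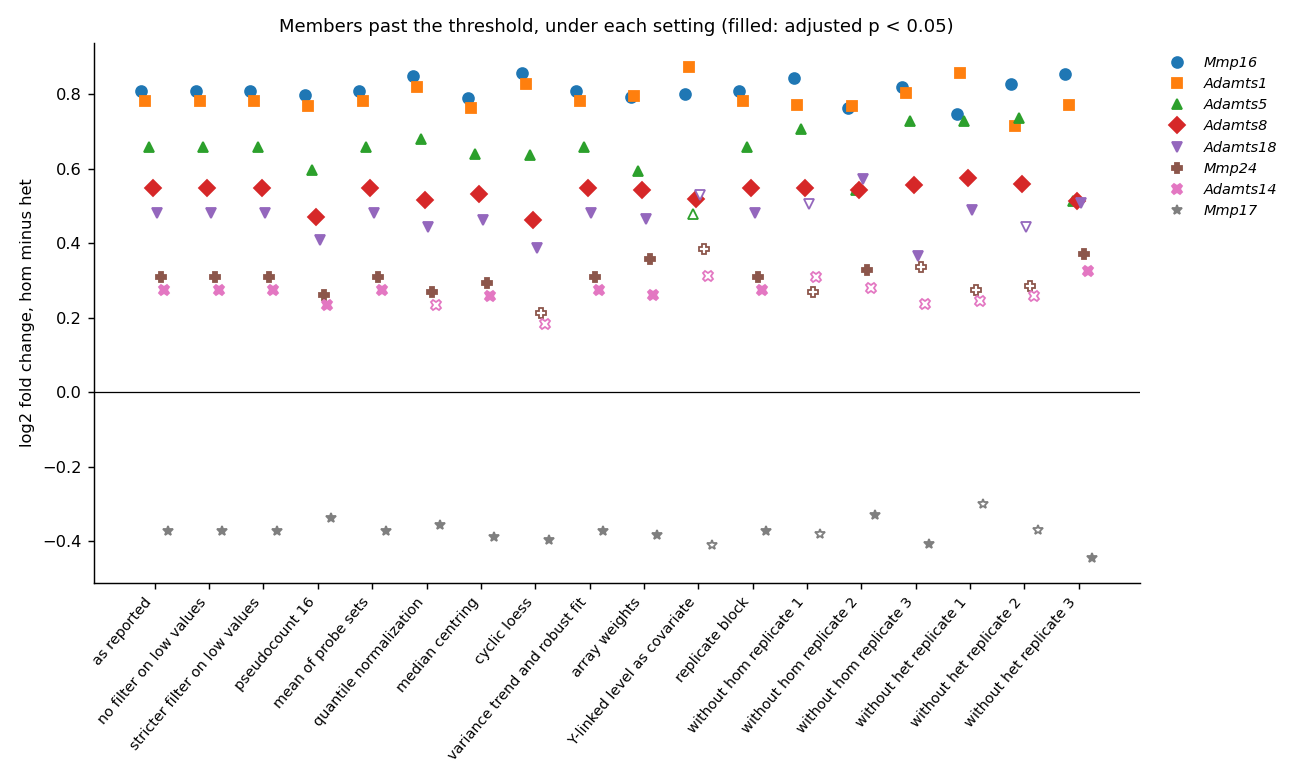
Log2 fold change (homozygous minus heterozygous) of the 8 members past the threshold, under the reported fit and each of the 17 alternatives. Filled symbols have an adjusted p below 0.05 and open ones do not; Mmp16, Adamts1 and Adamts8 are filled throughout, while Adamts14 and Mmp24 are open in several refits without 1 array.

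Other genes of matrix proteolysis, from a list of 41 of which 39 were measured, changed in both directions, with 6 higher and 4 lower, or 25.6%, against 17.0% of all genes. This share is not independent evidence, since the list was chosen with earlier results of these data known. The median log2 fold change of the list was 0.04. Adamtsl1, a secreted ADAMTS-like protein without a protease domain, was 1.66-fold higher, at 319, 352 and 317 on the homozygous arrays, against 188, 202 and 203 on the heterozygous arrays (log2 fold change 0.73 ± 0.07 SE; adjusted p = 0.000535). Adamtsl5, of the same group, had 158, 144 and 157 on the homozygous arrays, against 114, 109 and 113 on the heterozygous arrays (0.45 ± 0.06 SE; adjusted p = 0.00392). Ctsk, a collagen-degrading cathepsin, had 156, 160 and 194 on the homozygous arrays, against 127, 116 and 106.6 on the heterozygous arrays (0.54 ± 0.10 SE, adjusted p = 0.011). This call was lost with the Y-linked covariate (0.49, adjusted p = 0.0642). Htra3, a secreted serine protease, was lower, at 164, 152 and 165 on the homozygous arrays, against 236, 224 and 210 on the heterozygous arrays (-0.47 ± 0.07 SE; adjusted p = 0.00432). The counts fell to 3 higher and 3 lower when homozygous array 1 or heterozygous array 1 or 2 was left out, and to 2 and 3 with the Y-linked covariate. In these settings 6.40%, 9.03%, 7.35% and 8.80% of all genes were called.

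Of 21 substrates and binding partners 20 were measured, and 7 were higher and 5 lower, or 35% and 25%, against 10.4% and 6.56% of all genes. This list was chosen with earlier results of these data known, so its shares are not independent evidence. Biglycan (Bgn) and decorin (Dcn), small proteoglycans that bind collagen, were higher. Bgn had 805, 957 and 938 on the homozygous arrays, against 627, 586 and 549 on the heterozygous arrays (log2 fold change 0.61 ± 0.09 SE; adjusted p = 0.00346). Dcn had 2100, 2917 and 2111 on the homozygous arrays, against 1691, 1695 and 1621 on the heterozygous arrays, with homozygous array 2 far above the rest (0.49 ± 0.12 SE; adjusted p = 0.0279). The Dcn call was lost without any 1 heterozygous array (0.47 to 0.50) and with the Y-linked covariate (0.46, adjusted p = 0.124).

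The list holds 4 large aggregating proteoglycans, a class of targets of the proteoglycanases, of which 1 was higher, 1 was lower and 2 did not pass. Acan (aggrecan) was dim and higher, at 62.1, 50.3 and 57.9 on the homozygous arrays, against 36.0, 32.0 and 42.9 on the heterozygous arrays (log2 fold change 0.61 ± 0.12 SE; adjusted p = 0.0113, and 0.0507 without homozygous replicate 1, at 0.54). Hapln1, a link protein that ties these proteoglycans to hyaluronan, was lower, at 83.3, 87.4 and 68.3 on the homozygous arrays, against 105, 126 and 119 on the heterozygous arrays (-0.55 ± 0.11 SE; adjusted p = 0.0117). Vcan (versican), named after its values were seen, was lower as well, at 638, 728 and 648 on the homozygous arrays, against 900, 919 and 989 on the heterozygous arrays (-0.48 ± 0.07 SE; adjusted p = 0.00542). Bcan and Ncan, proteoglycans best known from the brain and likewise named after their values were seen, were at 0.21 ± 0.07 and 0.19 ± 0.08 (SE; adjusted p = 0.0597 and 0.141). Transcript levels of a protease and of its target do not show whether the target was cut. The counts of this list were 3 higher and 3 lower when homozygous array 1 or heterozygous array 1 was left out and with the Y-linked covariate. They were 3 and 4 when heterozygous array 2 was left out, and 4 and 4 when homozygous array 3 was. Between 6.40% and 9.74% of all genes were called in these settings, against 17.0% in the reported fit.

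**Figure D4:**
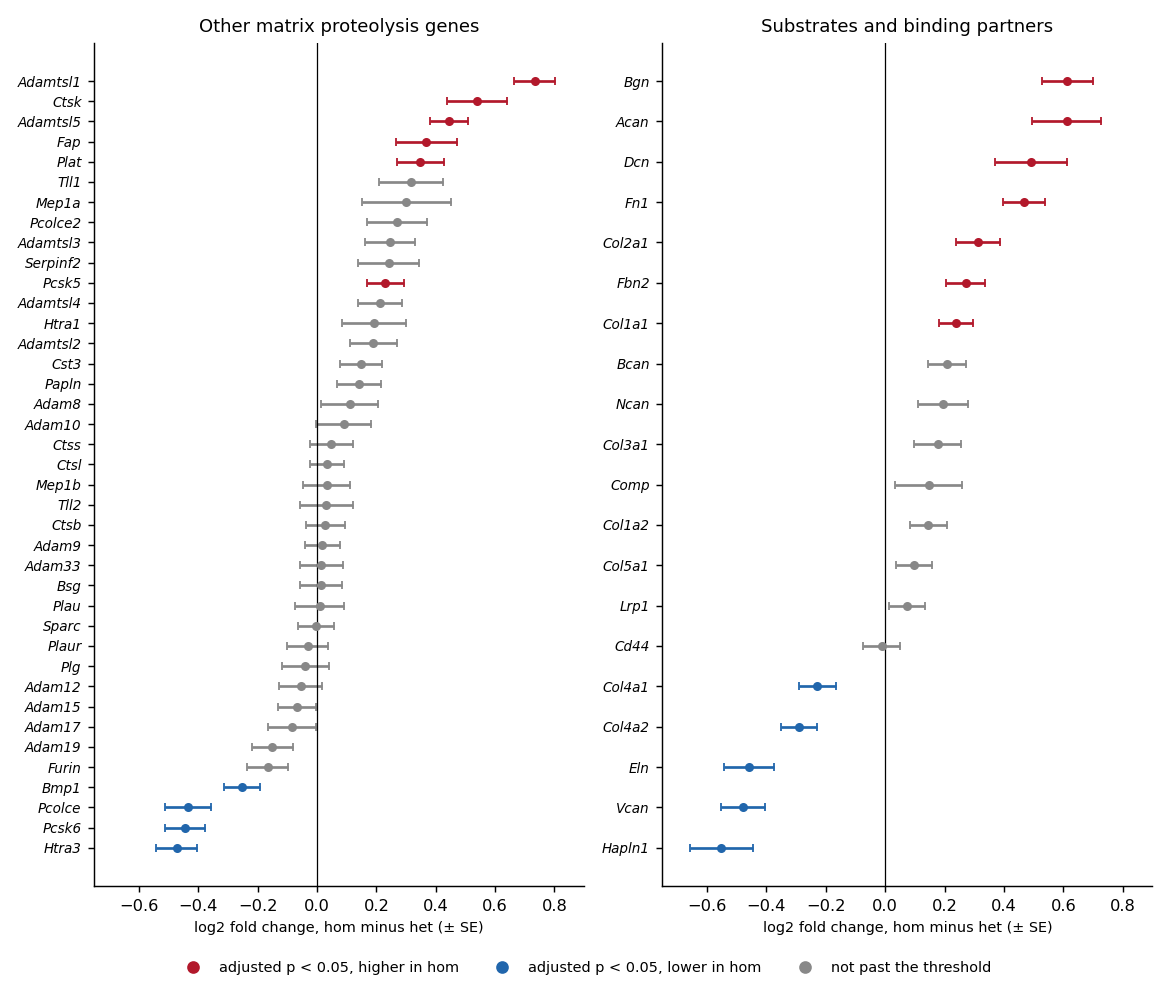
Log2 fold change (homozygous minus heterozygous, ± SE, n = 3 each) of the 39 other matrix proteolysis genes (left) and the 20 substrates and binding partners (right) that were measured. Red points were called higher (6 and 7), blue points lower (4 and 5) and grey points did not pass; Vcan and Hapln1 lie at the lower end of the right panel while Bgn and Acan lie at its upper end.

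Markers of cell types were compared between the same samples, in which 10.4% of all genes were called higher and 6.56% lower. All 10 endothelium markers were lower, and their summed intensity was 5642 to 5970 in homozygous and 8036 to 8355 in heterozygous spleens. For each list below, the ranges are likewise those of the sum over its measured markers, not of a single gene. Of 8 erythroid markers 5 were lower (1736 to 1973 in homozygous, 2575 to 2868 in heterozygous spleens), and of 6 megakaryocyte markers 3 were lower (607 to 839 in homozygous, 1051 to 1296 in heterozygous spleens). Of 9 spleen mesenchyme markers 6 were lower, Tlx1 itself among them, and 1 was higher (14942 to 15532 in homozygous, 16361 to 16763 in heterozygous spleens). The higher one was Col1a1, which is also counted among the substrates. Higher markers were 2 of 7 for epithelium (3396 to 3754 in homozygous, 2571 to 3330 in heterozygous spleens). For exocrine pancreas 1 of 4 was higher, Cpa1, and the sum over the 4 was 1810 to 2041 in homozygous and 432 to 1066 in heterozygous spleens. Cpa1 made up most of that sum, and Cel, Ctrb1 and Ptf1a did not pass. For smooth muscle 1 of 6 was higher, Des, and the sum over the 6 was 1953 to 2169 in homozygous and 1532 to 1870 in heterozygous spleens. For neural crest and enteric neurons 1 of 4 was higher, Sox10. The sum over the 4 was 285 to 328 in homozygous and 225 to 264 in heterozygous spleens. Of 9 neutrophil and mast cell markers 1 was higher, Camp, which is near the share of all genes. The sum over the 9 was 983 to 1122 in homozygous and 838 to 874 in heterozygous spleens. None of 9 macrophage markers passed in limma (2797 to 2934 in homozygous, 2722 to 2830 in heterozygous spleens). Of these 9, 3 had an unadjusted p below 0.05, against 6382 of all 18710 genes. Of 5 mesothelium markers 1 was higher and 1 lower (4934 to 5227 in homozygous, 5044 to 5408 in heterozygous spleens). The lower one was Wt1, also counted as a spleen mesenchyme marker. Among 7 chondrocyte and skeletal markers 2 were higher and 1 lower (764 to 839 in homozygous, 767 to 851 in heterozygous spleens). The 2 higher ones, Col2a1 and Acan, are also counted among the substrates. No marker was listed at 0. The part of these shifts in the changes of the proteases was not tested.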

How the data were processed

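Total RNA of 6 embryonic spleen samples was measured on Affymetrix mouse arrays, 3 per genotype, with groups taken from the labels. The authors deposited linear intensities for each probe set, and the submitters' processing notes name GCRMA. The sources used here give neither its version nor how probe sets were defined or mapped. GCRMA corrects the background by probe sequence, normalizes between arrays and summarises probes. Precision is limited by the number of arrays.

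Of 35512 probe sets the platform annotation named 21789 with 1 symbol, 1621 with several and left 12102 unnamed, and only the first were used. Of their Entrez identifiers 21698 were found in the RefSeq table of GRCm38.p6, and no symbol changed. Probe sets reaching 4 in log2(intensity + 1), which is an intensity of 15, on 3 or more of the 6 arrays were kept, with the brightest probe set per gene by mean of the 6 arrays, which gave 18710 genes. Dim genes have fold changes pulled toward 0 by the added 1.

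The difference homozygous minus heterozygous was tested two-sided by limma 3.58.1 (R 4.3.3), without a covariate, with Benjamini-Hochberg adjustment over all genes; called means an adjusted p below 0.05. The fit was tested on simulated data. Every called member, and the member with the smallest p in each role without a call, is given array by array, and from each further list the 4 called genes with the largest change. The members and lists were chosen with earlier results of these data known. Alternatives were the filter, the pseudocount, the probe set rule, 3 scalings, the variance model, array weights, the Y-linked level (Eif2s3y, Kdm5d and Uty) as a covariate, a replicate block and leaving out each array; those of the further lists, of Tlx1 and of the tissue markers were added after seeing the data.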

Additional observations from a re-analysis of the deposited data

How the results depend on the processing

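Among the members' single values under the 17 alternatives, 634 kept their direction and side of the threshold, 22 lost a call, 19 gained 1 and 19 turned sign, all of the last in uncalled members near 0. Called over all genes were 1951 higher and 1227 lower, and 1140 and 507 with the Y-linked covariate, which left 3 members higher and 0 lower. Over the refits without 1 array the counts ranged from 699 to 2319 higher and from 499 to 1244 lower genes, and from 4 to 8 higher and 0 to 1 lower members. Fewer samples enter these refits. Lower members were 2 with the stricter filter (log2 of at least 5, which dropped Mmp3, Mmp8 and Timp4) and 3 after cyclic loess. They were 2 with a variance trend and robust fit together and 3 with array weights. In these last 2 settings 9 and 10 members were higher, against 7, while 1983 and 2825 of all genes were higher, against 1951. The cause was not tested. Signs turned for Adamts10 after median centring (-0.014; -0.022 to 0.042 without 1 array), for Adamts3 with the mean of probe sets (-0.013), and after cyclic loess for Adamts4 (-0.015), Mmp13 (-0.033), Mmp14 (0.013) and Mmp28 (-0.045). Mmp10 turned with array weights (0.016) and with the Y-linked covariate (0.15). Without 1 array Mmp10 ranged from -0.10 to 0.068, Mmp11 from -0.010 to 0.037, Mmp14 from -0.054 to 0.017, Mmp28 from -0.019 to 0.074 and Timp1 from -0.0010 to 0.14. With the replicate number as a block, 2091 genes were higher and 1072 lower, with 7 higher and 1 lower members, and Tcf21 lost its call (adjusted p = 0.0578). The labels do not say whether these numbers pair the samples. Deviations of same-numbered arrays correlated at -0.01, 0.04 and -0.11, and 1 of 3 homozygous arrays correlated best with its own number. So few arrays cannot decide whether the samples were paired. Signal over background was not examined. This limits what the dim MMP genes can show, and the called members near or below the array medians (Adamts8, Adamts14, Adamts18 and Mmp24).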
